A study of Drosophila melanogaster with 384 samples.

Results

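The genes described here encode the chemosensory receptors of Drosophila melanogaster: the odorant receptors (Or), the gustatory receptors (Gr) and the ionotropic receptors (Ir). They were taken by symbol, as protein-coding genes of the release 6 annotation named Or, Gr or Ir followed by digits and letters, which gave 59 Or, 60 Gr and 60 Ir genes of 13986 protein-coding genes. The rule uses symbols and positions and no measured value. Their promoter rows were the regions of the count table that overlapped 500 bp on either side of an annotated transcription start site (TSS). Of the 68775 listed regions, 41 were promoter rows of Or genes, 36 of Gr genes and 43 of Ir genes, and 1 of these rows, at the common start of Or10a and Gr10a, counts in both families. Orco, the odorant co-receptor, is outside the rule by its symbol and is given beside the members.

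Open chromatin was read cell by cell with ATAC-seq, an assay that cuts accessible DNA with the Tn5 transposase and tags the cuts for sequencing, after cells had been caught singly in the microfluidic chambers of a Fluidigm C1. A batch of 200 eye-antennal discs, from which the adult eye, antenna and maxillary palp develop, was dissected from wandering third-instar larvae of the strain labelled F2-B(sens)-GFP, with w;F2-B/CyO as its genotype. The reporter is an enhancer within an intron of senseless (sens) to which Atonal binds, and GFP-positive cells sorted from this line are called sens-GFP+ here. There was 1 group: the 72 cells of the table, summed as 1 sample with no replicate, no control sort and no treatment, so cells that differ in openness and an open site in more cells cannot be told apart in the sums. All intervals are 95% and cover counting error only. Promoter rows of sens held 21 counts in 16 cells. Each of the other furrow and R8 markers examined (ato, sca, boss, neur and dap) had counts. So did each of 6 antennal genes, among them disco with 79 counts in 39 cells. Having a count sets no gene apart, since 92.1% of other protein-coding genes with a listed promoter row had one. By counts per kb, boss and ato were at percentiles 36.3 and 45.3 of genes.

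Odorant and gustatory receptors are membrane proteins with several transmembrane segments, and odorant receptors form channels with Orco. Ionotropic receptors are related to ionotropic glutamate receptors and work with the co-receptors Ir8a, Ir25a, Ir76b and Ir93a. An olfactory neuron typically carries 1 or a few tuning receptors, and the adult receptors are among the last genes of the lineage to be turned on, in neurons that differentiate in the pupa. The discs sampled here hold the epithelium in which the sense organ precursors of the antenna and the photoreceptors are specified. The receptor loci were thus read in cells of an earlier stage than the adult neurons that are known for them. The paper matches cells sorted with the sens enhancer to groups of the morphogenetic furrow and R8 photoreceptors, which lie in the eye disc. Stage is then not the only difference from those neurons.

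The upstream DNA of 6 receptors is shown because their promoter rows were among those with most counts, or because 1 start serves 2 families, and because their start site is annotated apart from the start codon. Each line is the 100 bases that end just before the annotated start, 5′ to 3′ on the strand of the gene, from the release 6 reference (RefSeq, dm6), and the capitals mark the letters TATAAA read on either strand. Or67a is at chr3L:9528967-9529066 (+). Or10a and Gr10a share chrX:11417423-11417522 (-). Gr32a is at chr2L:11113914-11114013 (+). Gr28a is at chr2L:7454213-7454312 (-). Gr97a is at chr3R:26966486-26966585 (-).
Or67a: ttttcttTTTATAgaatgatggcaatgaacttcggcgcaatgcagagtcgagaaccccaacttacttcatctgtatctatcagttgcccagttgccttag
Or10a and Gr10a: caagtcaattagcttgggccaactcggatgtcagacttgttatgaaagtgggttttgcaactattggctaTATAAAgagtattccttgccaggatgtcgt
Gr32a: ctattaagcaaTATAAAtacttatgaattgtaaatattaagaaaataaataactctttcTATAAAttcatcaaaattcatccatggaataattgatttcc
Gr28a: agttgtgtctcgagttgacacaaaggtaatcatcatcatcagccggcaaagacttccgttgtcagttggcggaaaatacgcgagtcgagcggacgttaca
Gr97a: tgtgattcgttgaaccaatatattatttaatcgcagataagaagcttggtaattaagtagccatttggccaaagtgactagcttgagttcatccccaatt

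The families differed in the letters they carried upstream. Within 250 bp upstream of the 5′-most start, TATAAA on either strand was found in 42 of 59 Or genes (71.2%, Wilson interval 58.6 to 81.2%), 30 of 60 Ir genes (50%, 37.7 to 62.3%) and 16 of 60 Gr genes (26.7%, 17.1 to 39%), against 42.9% of 13766 other protein-coding genes. TATCGATA, the DREF element of many housekeeping promoters, was in the windows of 0 of 59 Or, 0 of 60 Gr and 0 of 60 Ir genes, for which the joint Wilson interval reaches 2.1%, and in 8.10% of the windows of other genes. Among the 565 other genes with no annotated 5′ UTR, TATCGATA was in 1.42% and TATAAA in 47.8%. GAGAG, the core letters bound by GAGA factor, was in 18.4% of receptor windows (13.4 to 24.8%), 25.8% of other windows and 16.5% of those without an annotated 5′ UTR. The E-box CAGGTG was in 13.4% of receptor windows (9.18 to 19.2%), 7.82% of other windows and 9.03% of those without an annotated 5′ UTR. CAGCTG was in 8.38% of receptor windows, 13.5% of other windows and 8.14% of those without an annotated 5′ UTR. TCAGTT, an initiator-like string, was in 20.7% of receptor windows, 17.9% of other windows and 30.6% of those without an annotated 5′ UTR, so the side on which the receptors fall depends on which genes they are set against. Both strands were searched for each string, and a window could hold several. The median GC content of these windows was 38% for the receptors and 37.2% for the other genes. These letters are a description of the DNA and not of bound sites.

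Most receptor starts in the annotation are start codons. Of the receptor transcripts, 70.9% began within 10 bp of their start codon, against 2.47% of 30579 transcripts of other protein-coding genes. Counted by gene, 76.5% of the receptors (47 of 59 Or, 41 of 60 Gr and 49 of 60 Ir genes) had no annotated 5′ UTR longer than 10 bp, against 4.27% of other genes. The true start of such a gene may lie upstream of the annotated one, and the promoter rows of these genes are placed by the coding start. The listed regions are pieces of non-coding sequence, and they stopped at the coding sequence here: all receptor rows but 1 touched it, and by at most 2 bp.

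Fewer receptors than other genes had a region listed at the promoter. A row was listed for 110 receptors (61.5%, Wilson interval 54.2 to 68.3%), made up of 38 of 59 Or genes (64.4%), 32 of 60 Gr genes (53.3%) and 40 of 60 Ir genes (66.7%), against 84.1% of 13807 other protein-coding genes. Among genes with no annotated 5′ UTR, a row was listed for 80 receptors (58.4%, 50 to 66.3%) and 54.6% of 590 other genes (50.5 to 58.6%). Among genes with one, the shares were 71.4% of 42 receptors (56.4 to 82.8%) and 85.5% of 13217 others. The rule by which regions were listed is not stated, so the 69 receptors with no row are given as not listed and not as closed. They include Gr66a and Gr33a, which serve bitter taste, the sugar receptor Gr64f, the acid sensor Ir64a, Ir21a of cool sensing, Ir75a, and the odorant receptors Or43b, Or88a and Or92a.

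The listed promoter rows of the receptors held 2.05 counts per kb over the 72 cells (Poisson interval 1.80 to 2.32; 2.13 counts per row), against 4.39 per kb in 19054 other promoter rows. The ratio was 0.467 (0.411 to 0.528). Over all genes, Or rows were the sparsest, at 77 counts and 1.60 per kb (1.27 to 2). Gr rows held 71 counts and 2.39 per kb (1.86 to 3.01), and Ir rows 2.51 counts per row and 2.32 per kb (1.90 to 2.80). The ratio of Or to Ir rows was 0.692 (0.51 to 0.936) and of Or to Gr rows 0.673 (0.481 to 0.942), while the ratio of Gr to Ir rows was 1.03 (0.752 to 1.4). The Ir value leans on the row with most counts, shared with another gene: without that row Ir held 1.97 per kb. In rows of receptors alone, described below, Or held 1.30 per kb (0.977 to 1.70), Ir 1.62 (1.21 to 2.13) and Gr 1.92 (1.37 to 2.63). The ratio of Or to Ir was not computed for either setting. Each family lay below the other promoter rows, with ratios of 0.365 for Or, 0.543 for Gr and 0.527 for Ir.

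The ratio was not the same for genes with and without an annotated 5′ UTR. For receptors with one, set against other genes with one, it was 0.462 (0.371 to 0.568). For receptors without one, set against other genes without one, it was 0.823 (0.692 to 0.974). The order of the families also moved. Receptors with an annotated 5′ UTR had 2.14 (Or), 3.56 (Gr) and 1.56 (Ir) counts per kb. Those without one had 1.48 (Or), 1.61 (Gr) and 2.85 (Ir). Ir rows and not Or rows were the sparsest among genes with a 5′ UTR, but no interval was computed for these family values. Ir40a, 1 of these Ir genes, held 6 counts in 11.7 kb of rows, and the Ir value was not computed without it. The comparison by 5′ UTR was added after the values were seen, and what the missing 5′ UTR stands for (an incomplete gene model, or a kind of gene) was not tested.

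Rows that belonged to a receptor alone held fewer counts than rows shared with a neighbour. The 88 receptor-only rows, which overlapped the promoter window of no gene outside the 3 families, held 1.61 counts per row, or 1.53 per kb (1.29 to 1.80). The 31 shared rows held 3.58 counts per row, or 3.63 per kb (2.99 to 4.37), and the ratio of receptor-only to shared rows was 0.421 (0.326 to 0.545). Reads in a shared row cannot be assigned to either gene. Receptor-only rows stood at 0.385 (0.324 to 0.453) of the density of 14051 other promoter rows of 1 gene (3.98 per kb), at 0.811 (0.683 to 0.957) of that of 49602 distal rows (1.88 per kb), and at 0.80 (0.658 to 0.967) of that of the rows of 1 other gene with no annotated 5′ UTR (1.91 per kb). By family, the receptor-only density relative to distal rows was 0.69 (0.519 to 0.901) for Or, 1.02 (0.726 to 1.4) for Gr and 0.862 (0.644 to 1.13) for Ir, so that only the Or interval stayed below 1.

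**Figure D1:**
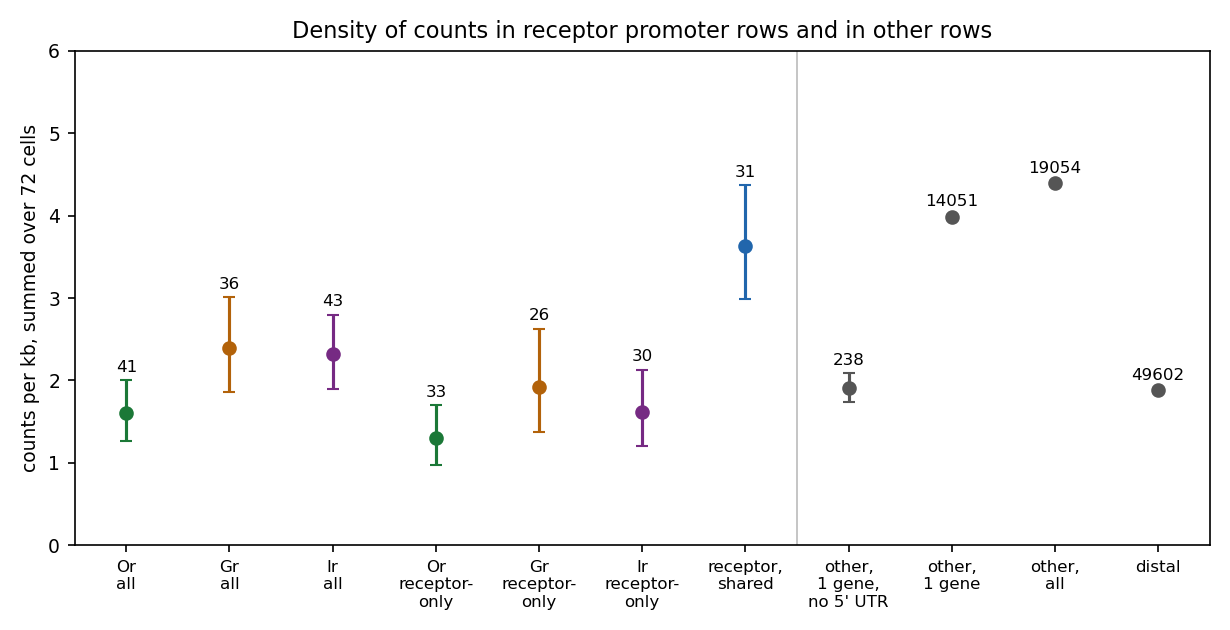
Counts per kb summed over 72 cells (vertical axis) for classes of listed rows, with exact 95% Poisson intervals as bars and the number of rows above each point; receptor rows are left of the grey line and other rows right of it. Receptor-only rows sit between 1.30 (Or) and 1.92 (Gr) per kb, near distal rows at 1.88 and other genes without a 5′ UTR at 1.91, and below other promoter rows of 1 gene at 3.98.

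Position, length and base composition were examined beside these densities. By length, the receptor-only rows were 71.5% intergenic, 19% intronic and 9.31% non-coding exon, and 81 of 88 held the receptor start itself. In every length class receptor-only rows stood below promoter rows of 1 other gene, for example 2.14 against 4.64 per kb at 500 to 1000 bp and 1.05 against 2.74 per kb above 1500 bp; distal rows of these lengths had 2.62 and 0.945 per kb. Density fell with row length in all 3 classes. Across 5 GC classes the receptor-only rows ranged between 1.21 and 2.27 per kb, and the promoter rows of 1 other gene between 2.63 and 6.18 per kb, and in the second class density rose with GC content. By chromosome arm the receptor-only density was 2.4 per kb on X, 1.15 on 2L, 1.7 on 2R, 1.73 on 3L and 1.34 on 3R, each below the 3.81 to 4.43 per kb of 1-gene rows of other genes on these arms.

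Single rows were close to the floor. Receptor-only rows had a median of 1 count and at most 8, and 17 of 88 (19.3%) had none. A row without a count was seen in 17.6% of all receptor rows, against 14.6% of all other promoter rows. The share without a count was 19.7% for promoter rows of 1 other gene with no annotated 5′ UTR, and 19.8% for distal rows. Counts of 5 or more were reached by 6 of 88 receptor-only rows (6.82%, 3.16 to 14.1%) and by 11 of 31 shared rows (35.5%, 21.1 to 53.1%), against 25.6% of promoter rows of 1 other gene and 11.5% of distal rows. In promoter rows of 1 other gene with no annotated 5′ UTR this share was 7.56% (4.84 to 11.6%), near that of receptor-only rows. The variance of counts over rows was 1.57 times their mean for receptor-only rows, 4.76 for shared rows, 5.83 for distal rows and 9.36 for all other promoter rows. Receptor-only rows had the lowest of these 4 ratios, with 0 or 1 count in 55 of 88 rows and no row above 8.

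**Figure D2:**
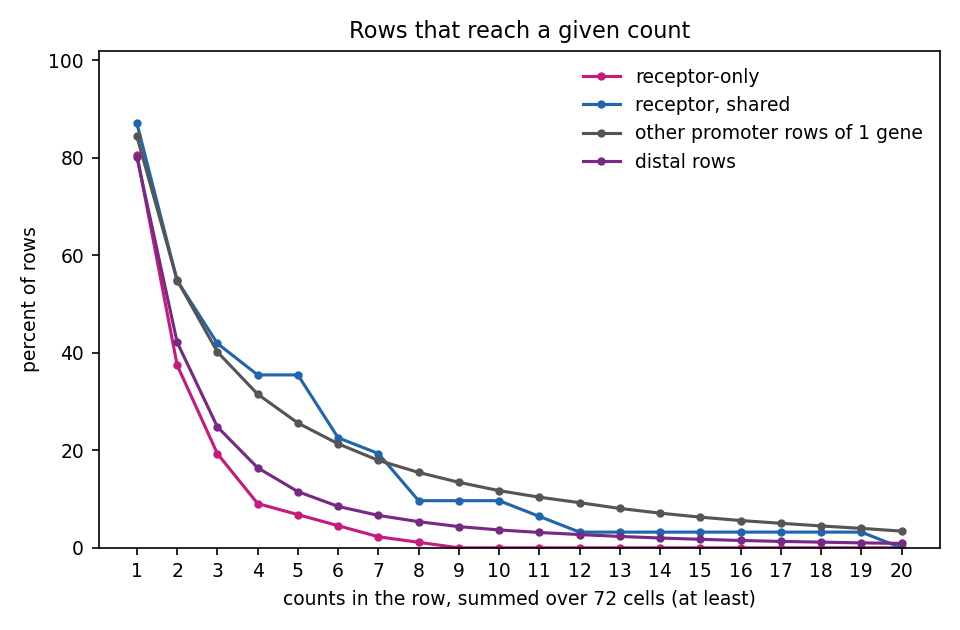
Percent of rows (vertical axis) with at least the number of counts on the horizontal axis, summed over 72 cells, for receptor-only rows, receptor rows shared with another gene, promoter rows of 1 other gene and distal rows. No receptor-only row exceeds 8 counts, 6.82% reach 5, and the shared rows run close to other promoter rows.

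Counted by gene, 19 of the 110 listed receptors (17.3%, 11.3 to 25.4%) had no count in any promoter row, against 7.95% of 11616 other listed genes and 17.4% of the listed genes without an annotated 5′ UTR. The share was 15.8% for Or, 21.9% for Gr and 15% for Ir genes, with intervals that overlap. A further 39 receptors had 1 count, 18 had 2, 16 had 3 or 4, and 18 had 5 or more. Of the 79 genes with receptor-only rows, 16 had none, 56 had 1 to 4 and 7 had 5 or more, and 33 were seen in a single cell. A gene with a count in 0 of 72 cells allows a share of cells with a count of up to 4.17% (the limit of 3 counts in 72 cells), and this limits cells with a count, not cells with an open site. The 19 genes at 0 were Gr59c, Gr63a, Gr64b, Gr64c, Gr92a, Gr93b, Gr94a, Ir41a, Ir7f, Ir7g, Ir84a, Ir8a, Ir94d, Or2a, Or43a, Or56a, Or59a, Or74a and Or83c.

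The co-receptors, which most neurons of a class share in the adult, had 0 to 3 counts each. Ir8a, the co-receptor of acid-sensing neurons, had 0 counts in its 680 bp row, which is shared with mir-4916. Ir25a, the most broadly used co-receptor, had 1 count in a row of 0.194 kb, and the 5.15 counts per kb that this gives rest on that single count. Ir76b had 2 counts in 2 cells in a row shared with CG14187, and Ir93a, needed for temperature and humidity sensing, had 1 count. Orco had 3 counts in 3 cells over 2 rows (1.23 per kb). At these counts the co-receptors cannot be ordered, since each Poisson interval overlaps the others.

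Among tuning receptors, the most counts without a neighbour were at Or67d, the receptor of the male pheromone cis-vaccenyl acetate. Its row at chr3L:10271597-10273204, which is intergenic and ends at the coding start, held 8 counts (3.45 to 15.8) in 5 cells, of which 1 cell had 4 and the other 4 cells 1 each. The row of Or67a, an odorant receptor of the antenna, held 6 counts in 6 cells over 2614 bp. Or47b, another receptor of fly odours that acts in male courtship, had 3 counts, all from 1 cell. The fruit-odour receptors Or42a, Or42b and Or22a had 1, 2 and 1 counts, and the palp receptor Or85e had 1, as had Or83a, which lies inside CG1172. Or56a, the receptor of geosmin, had 0. Apart from Or67d and Or67a, no Or gene reached 5 counts in receptor-only rows.

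Ir52a, an ionotropic receptor of leg and mouthpart taste neurons, had 7 counts (2.81 to 14.4) in 7 cells with 1 count each, in an intergenic row of 1512 bp at chr2R:15498121-15499632. Ir52a was the 1 gene of its cluster of 4 with a listed row. Ir40a, which serves dry sensing, had 6 counts in 6 cells, but over 4 rows of 11.7 kb in all, or 0.514 per kb. Ir85a had 5 counts in 5 cells in 594 bp (8.42 per kb, 2.73 to 19.6), the highest density among the 10 genes with most counts in receptor-only rows. The Ir85a row lies within an intron, and the gene is inside Pif1A and Pif1B, so its counts may belong to the host genes. Ir56b had 4 counts in 4 cells and Ir7d 4 counts in 3 cells. Ir84a, a receptor of food aromatics that promotes male courtship, had 0, Ir56d 1, and the humidity receptor Ir68a 2 in a row shared with a long non-coding RNA. Ir20a had 2 counts, also in a row shared with a long non-coding RNA.

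Gr28a had 6 counts (2.2 to 13.1) in 843 bp, 7.12 per kb, from only 2 cells with 3 counts each. At most once per cell, the Gr28a row would hold 2. Its neighbour Gr28b, whose isoforms act in heat and light sensing, had 3 counts in 3 cells over 4 rows of 3.36 kb (0.893 per kb). Gr2a had 5 counts in 4 cells, with 2 in 1 cell, and its row was non-coding exon throughout. Part of that exon lies upstream of the Gr2a start and so belongs to another gene, to which the counts may belong. Gr39a, which is transcribed from 4 starts and lies inside Mondo, had 4 counts in 4 cells over 3 rows. The carbon dioxide receptor is a pair: Gr21a had 2 counts, both in 1 cell, of which 1 lay in a row shared with CG13947, and Gr63a had 0 in a row of 0.335 kb shared with Lamtor4. Gr43a, the fructose receptor, had 1 count, the sugar receptor Gr64a 1 in a row shared with CG11594, and the common row of Gr10a and Or10a 3 counts in 3 cells.

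The larger counts lay in rows shared with another gene: 6 of the 8 receptor rows with at least 7 counts were shared, and the 5 highest rows held 55 counts, 21.7% of those in all receptor rows. The row with most was that of Ir48c and thisbe (ths), an FGF ligand, at chr2R:11789493-11790899, with 19 counts (11.4 to 29.7) in 17 cells (23.6% of cells, 15.3 to 34.6%) and 13.5 per kb. Its bases are non-coding exon (533 bp) and intron (872 bp), and the starts of both genes lie in it, 873 bp apart. The row of Ir60b and Letm1, a mitochondrial inner membrane protein, held 11 counts in 10 cells, and that of Gr97a and CG5521 10 counts in 9 cells. The bitter receptor Gr32a shared its row with Idua, a lysosomal hydrolase, and had 7 counts in 5 cells, with up to 3 per cell. Or71a, a receptor of the maxillary palp, shared its row with the centrosomal gene Plp and had 7 counts in 7 cells.

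The other 5 of the 10 shared rows with most counts had 5 to 7: Ir67a with CG42673 had 7, Ir60e with CG13585 had 6, and Or63a with CG34025, the trehalose receptor Gr5a with Tre1, and Or9a with Neb-cGP had 5 each. A further shared row, that of Gr23a and CR46404, also had 5 counts but a lower density (1.75 per kb). In 9 of the 10 rows the start of the other gene lay inside the row, at most 1060 bp from that of the receptor; the row of Ir67a was the exception. Over all shared rows, the 21 that held the start of the other gene had 95 counts, 4.30 per kb (3.48 to 5.26), against 16 counts and 1.88 per kb (1.08 to 3.06) in the 10 that did not, a ratio of 2.29 (1.34 to 4.16). Shared rows as a class stood at 0.633 (0.521 to 0.763) of the density of other promoter rows of at least 2 genes (5.73 per kb) and at 1.93 (1.58 to 2.32) of that of distal rows.

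**Figure D3:**
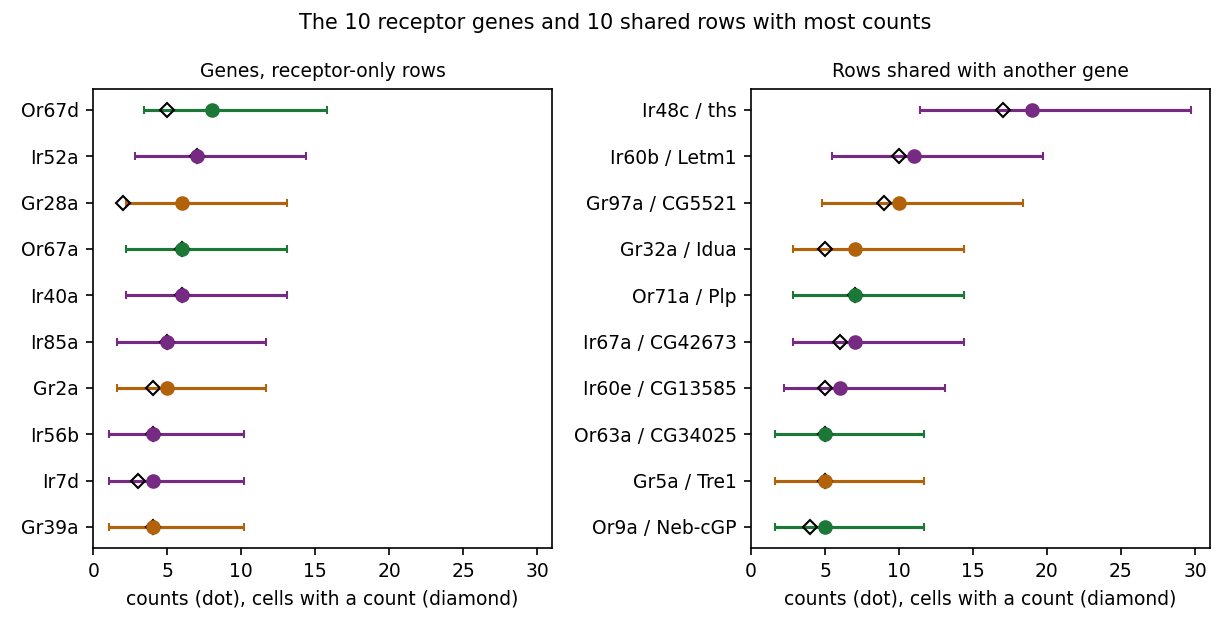
Counts summed over 72 cells (dots, with exact 95% Poisson intervals) and number of cells with a count (open diamonds) on the horizontal axis, for the 10 receptor genes with most counts in receptor-only rows (left) and the 10 shared rows with most counts, named with the other gene (right); green is Or, orange Gr and purple Ir. Or67d leads the left panel with 8 counts in 5 cells and the row of Ir48c and ths the right with 19 in 17, and the intervals within the left panel all overlap.

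Receptors that lie in tandem clusters were compared with those that lie apart, a cluster being at least 3 receptors with neighbouring starts no more than 20 kb from each other. There were 16 clusters with 58 genes, 50% of which had a listed row, against 66.9% of the receptors outside clusters. Receptor-only rows held 35 counts and 2.14 per kb (1.49 to 2.98) within clusters, and 1.40 per kb (1.15 to 1.69) outside them. The intervals overlapped, but overlap does not settle whether the densities differ, and no interval of their ratio was computed. No row was listed for the 5 genes of the Gr22 cluster (Gr22a to Gr22e) or the 3 of the Or33 cluster. The Gr64 cluster of sugar receptors, with 6 genes, had 1 count in 2 rows, and the Ir7 cluster on X (Ir7b to Ir7g) 7 counts in 3 rows. Genes of a cluster arose by duplication, and reads may be lost or split where copies are near-identical.

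Counts in receptor rows were spread over the cells. At least 1 was found in 67 of 72 cells (93.1%, 84.8 to 97%), where a share of counts equal in all cells would give 68.2. Per cell the number was 0 at the lowest, 3 at the median and 10 at the highest, and the receptor share of a cell's counts was 0 to 0.395% with a median of 0.119%. Receptor-only rows had a count in 58 cells and shared rows in 52, Or rows in 45, Gr rows in 41 and Ir rows in 50. The variance of the number per cell was 1.12 times that of binomial sampling, the spread that depth alone gives, for all receptor rows. It was 0.972 times for receptor-only rows and 1.24 times for shared rows. By family it was 0.974 (Or), 1.29 (Gr) and 1.14 (Ir) times. The cell with 10 had 4007 counts in all, and 6 of its 10 were in shared rows. Receptor rows took 0.128% of all counts on 0.155% of the listed bases, receptor-only rows 0.0719% on 0.117%, and shared rows 0.0562% on 0.0385%.

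**Figure D4:**
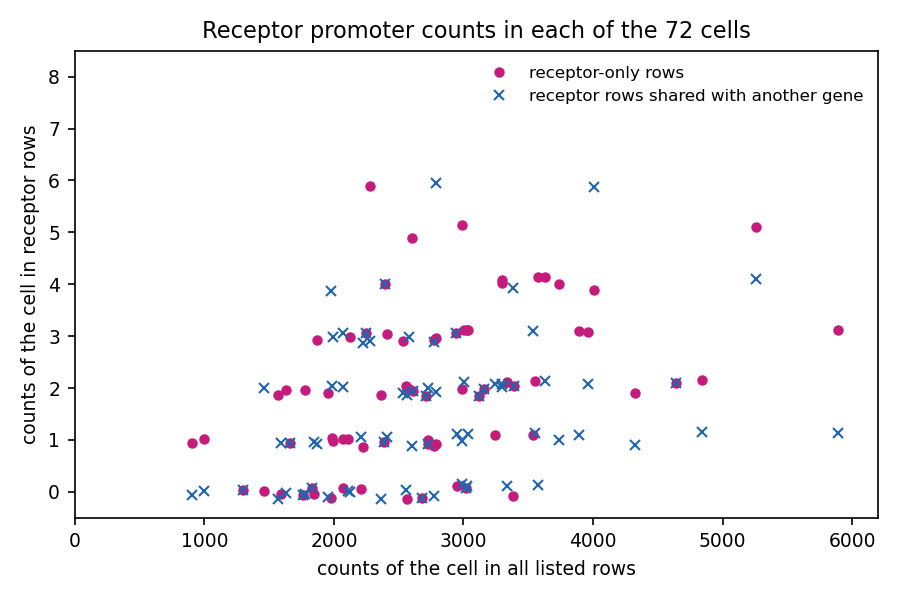
Counts in receptor rows (vertical axis, points moved by up to 0.15 to separate them) against all counts of the cell (horizontal axis), for each of the 72 cells; filled points are receptor-only rows and crosses rows shared with another gene. Cells held 0 to 6 counts of either kind, with medians of 2 and 1, over depths of 908 to 5892 counts.

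The region around each gene was also read over a wider window, the 5 kb upstream of each start plus the introns. This window takes in promoter rows that the rule used, so it is not a separate readout. A listed row fell in the window of 55 Or, 58 Gr and 58 Ir genes, and the median density was 1.73 counts per kb, against 2.92 for 13400 other genes, which places the median receptor at percentile 27.5 of all genes. It was at percentile 22 for Or, 40.9 for Gr and 25.1 for Ir genes. Of the receptors, 37 (21.6%) were in the bottom decile of genes and 7 (4.09%) in the top decile, against 9.85% and 10.1% of other genes. Other genes without an annotated 5′ UTR had a median of 1.95 per kb, with 22.7% in the bottom decile. Summed over the window rows outside the promoter rows of each set, receptors held 2.04 per kb, against 2.18 for other genes. By family these rows held 2.13 (Or), 3.34 (Gr) and 1.46 (Ir) per kb. Promoter rows of neighbouring genes stay in the receptor value, while those of the other genes are left out of theirs. The values for receptors and other genes are thus not alike and do not place the gap. Windows of neighbouring genes overlap, and these counts can belong to the neighbour.

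The 7 receptors in the top decile were Gr22b, Gr22c, Gr22d, Gr93a, Gr97a, Ir54a and Ir67a, and no Or gene was among them. The windows of Gr22b, Gr22c and Gr22d hold 1 listed row each with 1 count, so their 14.9 per kb come from single counts on short rows. Gr93a differed: its window held 64 counts in 5 rows (14.1 per kb), with no row listed at its promoter. Ir67a had 56 counts in 2 rows (9.12 per kb), of which 7 were in the promoter row, and Gr97a 15 counts in 2 rows. Ir85a, at percentile 89.1, had 39 counts in 6 rows. Or67d, first among the promoters, was at percentile 21.8, since its window of 4 rows held the same 8 counts and no other.

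**Figure D5:**
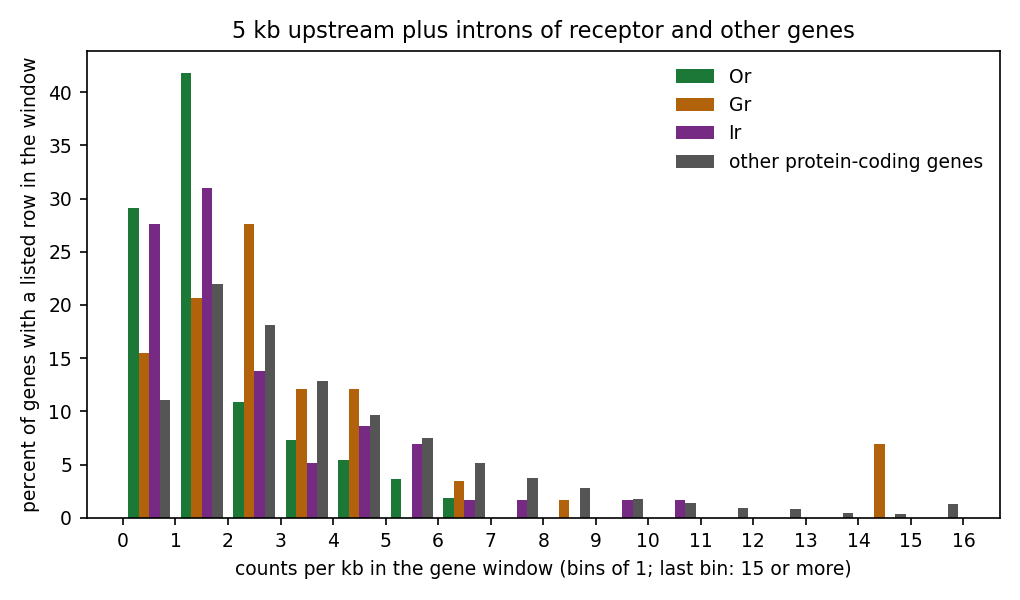
Percent of genes (vertical axis) by counts per kb, summed over 72 cells, in the window of 5 kb upstream plus introns (horizontal axis, bins of 1), for Or, Gr and Ir genes and other protein-coding genes with at least 1 listed row there. Or and Ir genes pile up below 2 per kb, the medians are 1.49 for Or, 2.38 for Gr, 1.62 for Ir and 2.92 for other genes, and the Gr bar at 14 to 15 is Gr22b, Gr22c, Gr22d and Gr93a.

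Genes of the same pathway were read from lists. Of 15 transcription factors of the chemosensory lineage and of receptor choice, all had a listed promoter row and 14 (93.3%) had a count. Among other protein-coding genes 84.1% had a listed row, and 92.1% of those had a count, so the share with a count was near that of other genes. The rows of the 15 factors held 9.82 counts per kb (8.78 to 11), against 4.83 per kb for other genes. The highest by counts per kb were pdm3, a POU factor of receptor choice, with 45 counts in 31 cells (29.6 per kb), and the proneural gene sc, with 22 counts in 17 cells (26 per kb), while dan had the most counts, 51 in 33 cells (18 per kb). Lower were acj6, the other POU factor of receptor choice, with 2 counts (1.48 per kb), ato with 6 (3.15 per kb), and amos, the proneural gene of most olfactory sensilla, with 0. Members of this list also act in the eye disc, among them ato, lz and dac. The 11 genes of odour transduction and the perireceptor space held 58 counts, 4.60 per kb (3.49 to 5.95). In rows not shared with another gene they held 18 counts, 2.5 per kb, and the counts of shared rows cannot be assigned. The highest counts were at Obp28a (27 counts), Amt (8), a10 (7) and Obp83a (6). Snmp1, the pheromone co-receptor CD36 homologue, had 1 count, and lush, the odorant-binding protein of the Or67d pathway, had 3.

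Other families with adult or cuticle functions gave a scale. Promoter rows of 51 odorant-binding protein genes (Obp) held 2.57 counts per kb (2.16 to 3.04) and 24.3% of the listed genes had none. Those of 70 cuticle protein genes (Cpr), of which 98.6% have an annotated 5′ UTR, held 1.62 per kb (1.33 to 1.94) and 16.4% had none. The receptors stood at 2.05 per kb and 17.3%, between these families in density, while 92 cytosolic ribosomal protein genes were at 6.28 per kb (5.83 to 6.76) with 2.22% at 0. Opsin genes, the receptors of the eye, held 11 counts over 5 listed genes, 2.08 per kb (1.04 to 3.73).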

How the data were processed

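Raw counts for each cell in each cisTarget region (a piece of the non-coding genome with borders set by conservation between species) were deposited by the authors in 1 table of 68775 regions and 72 cells. Per the methods and labels, reads were trimmed, mapped to release 6 (dm6) with Bowtie2 2.2.5 and SAMtools 1.2, and deduplicated with Picard; cells were kept by hand. FastQC is also listed. The counting tool, whether reads or fragments were counted, any shift for the transposase and the rule for listing regions are not given in the sources used here. The table totals 197425 counts, 908 to 5892 per cell (median 2694.5), and 3.31% of its entries are above 0. Each column name matched 1 sample title; 0 columns were left unused, and labelled cells without a column were not analysed here.

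Starts, exons and introns came from Ensembl release 115, and bases from the RefSeq release 6 genome. On each of the 5 main arms the last region ended before the arm did. Counts were summed over cells and rows and divided by row length, with exact Poisson intervals for counts, Wilson intervals for shares and exact conditional binomial intervals for ratios, in Python 3.11.15 with pandas 2.3.3, numpy 2.4.6, scipy 1.17.1 and statsmodels 0.14.6. Counts without molecular identifiers are not independent molecules, so intervals cover counting error only. With 1 sample no significance test was run. The code for ratios and their intervals was checked on simulated counts.

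Genes named were the 10 with most receptor-only counts, the 10 shared rows with most, the co-receptors, well-studied receptors by role, and clusters; genes at 0, those high in the wider window and the rest were named after their values were seen. Members and lists were chosen with earlier results of these data known. Symbols xbp1, fer1 and poxn of a list were not matched. Marker lists for glia (1.98 per kb), hemocytes (3.52), adepithelial cells (0.575), photoreceptors (10.5), antenna (17.5) and R8 with furrow (8.53) were read the same way. Alternatives covered promoter distance, row length, GC content, starts, cells and 5′ UTR annotation.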

Additional observations from a re-analysis of the deposited data

How the results depend on the processing

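Of 150 values that 15 alternatives gave for 10 results, all but 23 stayed within the counting interval of the value reported, and 0 turned round; 4 of the alternatives (5′ UTR with and without, GC content, genes inside no other gene) were chosen after seeing the data. The density ratio to other promoter rows ran between 0.385 and 0.823. With receptor-only rows against rows of 1 gene it was 0.385, the density 1.53 per kb (Ir 1.62) and the share of all counts 0.0719%. With genes without an annotated 5′ UTR it was 0.823, with Gr at 1.61 and Ir at 2.85 per kb and a share of 0.0831%. With genes that have one, Or, Gr and Ir stood at 2.14, 3.56 and 1.56 per kb, the share at 0.0451%, and genes with no count at 10% (Ir 0%). Ir and not Or was then lowest in density, but the Ir value includes Ir40a, with 6 counts in 11.7 kb. The order of Gr and Ir, whose intervals overlap, turned with 4 alternatives: genes without an annotated 5′ UTR, rows counted once per cell (1.95 and 2.15 per kb), rows of 500 to 1500 bp (2.94 and 3.25) and the 5′-most start (2.5 and 2.54). Rows of 500 to 1500 bp gave 2.57 per kb (Ir 3.25), a share of 0.0866% and 5.88% of Gr genes with no count. Rows of 34 to 46% GC gave a share of 0.109% and 10.5% of Gr genes with no count. Receptors inside no other gene gave Ir 1.86 per kb and a share of 0.103%, and 1000 bp on either side of the start a share of 0.176%. The share moves with the number of rows by construction; the cause of the other shifts was not tested. With 1 sample no replicate could be left out, and no paired analysis was possible because all cells form 1 group. Without the cell with most receptor counts the ratio was 0.459, and without the row of Ir48c and ths 0.436. Depth limits single genes: the median listed receptor had 1 count.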

Other observations

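The annotation also holds 7 receptor pseudogenes with symbols of the same form, which the rule leaves out because they are not protein-coding. Or98P had 8 counts in 4 cells over 2 rows, in part shared with Or98a. Ir56e had 5 counts in 5 cells, in rows partly shared with long non-coding RNAs, Ir60c 4 in 3 cells and Ir60f 3 in 3 cells. Ir51a had 2 counts and Ir48a 1, while no row was listed for Ir47b. None of these values was set against the functional receptors, since the numbers are at the level of single counts.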
